A study of Homo sapiens with 6 samples.

Results

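RAP proteins are small GTPases of the RAS family, and the genes described here are the 5 human RAP GTPase genes (RAP1A, RAP1B, RAP2A, RAP2B and RAP2C), 3 genes for exchange factors that load them with GTP (RAPGEF1, RAPGEF2 and RAPGEF6) and RAP1GAP, which codes for a protein that turns RAP off. These 9 genes were taken by symbol from a table of 27942 genes. The libraries came from HCT116, an established human colorectal carcinoma line of epithelial origin. Messenger RNA was sequenced in 3 libraries of untreated cells (NT) and 3 libraries of cells kept for 24 h in 0.5 µM oxaliplatin (OXA), a platinum compound that forms DNA adducts. The comparison asked which genes had changed their messenger RNA level at that time. It covers 1 cell line, 1 dose and 1 time point, and the labels name no separate culture for each library.

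A RAP protein is active when it carries GTP and inactive when it carries GDP. Exchange factors switch it on and GTPase-activating proteins switch it off, so that messenger RNA levels alone do not give its activity. Active RAP1 is best known for strengthening integrin adhesion and cadherin junctions in epithelial cells, through partners such as RIAM, talin and afadin. Active RAP2 binds the kinases TNIK, MINK1 and MAP4K4, and has been placed upstream of the Hippo pathway as a relay of matrix stiffness.

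The RAP GTPase genes are close in sequence and far apart in the genome (GRCh38, GENCODE release 44). RAP1A lies on chromosome 1 (111542218 to 111716691, plus strand), RAP1B on chromosome 12 (68610855 to 68671901, plus strand), RAP2A on chromosome 13 (97434169 to 97469128, plus strand) and RAP2C on chromosome X (132203024 to 132219480, minus strand). RAP2B occupies 153162226 to 153170627 on the plus strand of chromosome 3 and is the only one of the 5 whose reference transcript is a single exon. Reference transcripts of RAP1A and RAP1B have 8 exons each, that of RAP2A has 2 and that of RAP2C has 6. Their coding parts are alike in length, with 552 bases in RAP1A and RAP1B and 549 bases in each RAP2 gene, stop codon left out. Base identity over the coding part was 83.0% between RAP1A and RAP1B, 84.7% between RAP2A and RAP2B, 75.2% between RAP2A and RAP2C and 70.7% between RAP2B and RAP2C. Across the 2 families it lay between 55.4% and 59.7%.

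The coding bases of codons 31 to 45 are shown because they hold the effector-binding region, by which the families differ. Capitals mark codon 39, which encodes serine in both RAP1 genes and phenylalanine in all 3 RAP2 genes. The sequences are those of the reference transcripts, 5′ to 3′.
RAP1A: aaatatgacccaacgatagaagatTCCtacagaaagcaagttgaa
RAP1B: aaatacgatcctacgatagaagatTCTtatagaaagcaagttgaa
RAP2A: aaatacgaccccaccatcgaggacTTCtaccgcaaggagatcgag
RAP2B: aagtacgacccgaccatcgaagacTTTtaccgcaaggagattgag
RAP2C: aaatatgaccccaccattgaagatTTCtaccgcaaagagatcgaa
These stretches also show that the genes differ at the level of bases, in part by synonymous changes. Reads are assigned over the whole transcript, of which the coding part is a small share (549 of 8402 bases in RAP2B). No stretch of 100 bases, about the length of a read, was shared with any other annotated gene in the reference transcript of RAP1A, RAP2A, RAP2B, RAP2C, RAPGEF1, RAPGEF2 or RAP1GAP. In RAP1B, 244 of 13279 such stretches (1.84%) occurred in another gene, 232 of them in RAP1BL, a processed copy.

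RAPGEF6 is the exception among the 9 genes. Of its 8251 stretches of 100 bases, 6014 (72.9%) were also part of an annotated read-through gene on the same strand, whose own row in the table held 0 counts in all 6 libraries. RAPGEF6 values are therefore given with that overlap in mind. RAPGEF6 lies on chromosome 5 (131423921 to 131635231, minus strand), RAPGEF1 on chromosome 9 (131576770 to 131740076, minus strand), RAPGEF2 on chromosome 4 (159103013 to 159360174, plus strand) and RAP1GAP on chromosome 1 (21596221 to 21669357, minus strand).

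Library totals lay between 32979521 and 40967880 counts, and a library held between 575 (RAP1GAP) and 5609 (RAP1B) raw counts of a member. CDKN1A, which codes for the cell cycle inhibitor p21 and is induced by DNA damage, was used as the check of the treatment. It stood at 4235, 5143 and 6050 normalized counts in NT and at 40181, 41316 and 35832 in OXA. Of 8 epithelial markers only CDX1 was at 0, while leukocyte markers summed to at most 16.0 normalized counts in any library and endothelial markers to at most 28.5. Summed epithelial markers ranged from 77719 to 111629 in NT and from 126333 to 149337 in OXA, and the part of this difference in the results below was not tested. The higher sum came mainly from the keratins KRT8, KRT18 and KRT19 (edgeR log2 fold changes 0.47, 0.31 and 1.29, none called). CDX2 also had an estimate above 0 (0.24, not called), and its groups did not overlap. Its mean was 483 normalized counts in NT and 571 in OXA. EPCAM (-0.04), CDH1 (-0.20) and VIL1 (-0.38) had estimates below 0. The fibroblast markers DCN and LUM were at 0, and the fibroblast sum, nearly all COL1A1, ranged from 110 to 284 in NT and from 171 to 278 in OXA. NT replicate 1 stood apart. Its chi-square per gene was 83.1 against NT replicate 2 and 75.7 against NT replicate 3, compared with 19.2 to 29.6 for the other pairs within a group. Its difference from the other NT libraries was correlated with the GC content of the transcripts (r = -0.71 across genes, which are not independent replicates). Computed alike within each group, r was 0.62 and 0.36 for NT replicates 2 and 3, and -0.44, 0.51 and -0.10 for OXA replicates 1, 2 and 3. Fold changes of the members are therefore given with and without NT replicate 1, while paralog ratios, shares and sums are given only with it.

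Of the 9 genes, all of which passed the filter on low counts, RAP2B was the only one called by edgeR at an adjusted p under 0.05. It was higher in OXA, as were 2.78% of the 13727 genes tested, and no member was among the 2.29% called lower. At an unadjusted p under 0.05, edgeR had 1 member higher and 1, RAPGEF2, lower. The share of all genes at that unadjusted threshold was not counted. DESeq2 called 1 member higher and none lower, next to 636 and 635 of the 13727 genes tested. RAP2B stayed under 1.5-fold, so none of the 9 genes was among the 3.41% of genes that passed both the adjusted p and a 1.5-fold change in either direction. NT and OXA values did not overlap for 2 of the 9 genes, RAP2B and RAPGEF2, compared with 28.9% of all genes tested. The median log2 fold change over the 9 genes was -0.05, beside 0.02 over all genes tested, and 2 of the 9 estimates were above 0. A change in the number of cells that carry a message and a change in message per cell cannot be told apart in these bulk libraries.

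**Figure D1:**
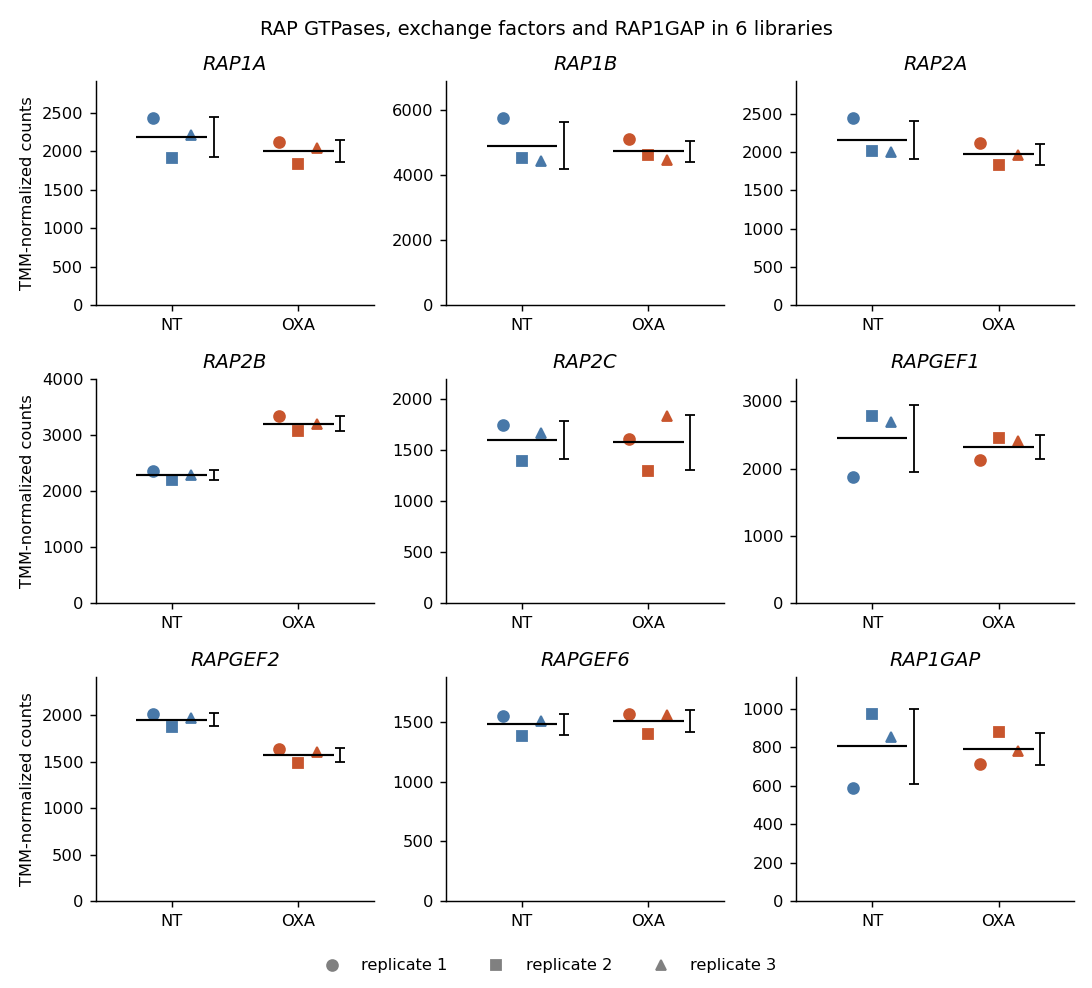
TMM-normalized counts (y axis, from 0) of the 9 genes in 3 NT and 3 OXA libraries. Marker shapes give the replicate number, horizontal lines the group means and bars 1 SD; the groups are separate for RAP2B and RAPGEF2 and overlap for the other 7 genes.

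RAP2B, whose product is a RAP2 GTPase found at cell membranes, rose 1.40-fold after oxaliplatin. It was measured at 2372, 2200 and 2298 normalized counts in the 3 NT libraries and at 3340, 3073 and 3210 in the 3 OXA libraries. The highest NT library was thus well below the lowest OXA library. Group means were 2290 ± 86.1 (SD, n = 3) and 3208 ± 134 (SD, n = 3). RAP2B had a log2 fold change of 0.49 (95% interval 0.29 to 0.68, SE 0.0827), a fold of 1.40, with an edgeR adjusted p of 0.0210, and RAP2B was higher in 3 of 3 same-numbered pairs. Adjusted p for RAP2B was 0.000428 with DESeq2 and 0.00402 in edgeR with the replicate number as a block. Without NT replicate 1, the library that stood apart, the log2 fold change of RAP2B was 0.51 (edgeR adjusted p = 0.0105). With any other library left out the estimate stayed between 0.43 and 0.52, while the edgeR adjusted p no longer passed 0.05. It was 0.0665 and 0.0852 without NT replicate 2 and 3, and 0.127, 0.0782 and 0.0995 without OXA replicate 1, 2 and 3.

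RAP2A and RAP2C, whose products share the effectors of RAP2B, showed no change that passed the test. RAP2A was at 2438, 2017 and 2001 normalized counts in NT and at 2115, 1836 and 1963 in OXA. Both OXA replicates 2 and 3 were lower than every NT library, but OXA replicate 1 lay inside the NT range. The log2 fold change of RAP2A was -0.13 (95% interval -0.39 to 0.13, edgeR adjusted p = 0.570), and without NT replicate 1 it was -0.03. RAP2C was at 1746, 1396 and 1666 normalized counts in NT and at 1607, 1299 and 1832 in OXA, so that OXA libraries held both its lowest and its highest value. Its log2 fold change was -0.02 (95% interval -0.37 to 0.33, edgeR adjusted p = 0.955). The RAP2C estimate changed sign, to 0.05, without NT replicate 1.

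Whether RAP2B moved apart from its paralogs was tested within libraries, since a ratio of 2 genes in the same library needs no scaling. The log2 ratio of RAP2B to RAP2A raw counts was -0.04, 0.13 and 0.20 in NT and 0.66, 0.74 and 0.71 in OXA. The difference of 0.61 in the mean log2 ratio corresponds to 1.53-fold, with no overlap between the groups and the same direction in 3 of 3 pairs. For RAP2B over RAP2C the log2 ratios were 0.44, 0.66 and 0.46 in NT and 1.06, 1.24 and 0.81 in OXA, a difference of 0.52 (1.43-fold), again without overlap and in 3 of 3 pairs. Both differences had a two-sided exact permutation p of 0.1, the smallest that 3 libraries against 3 allow, and 0.15 after Benjamini-Hochberg adjustment over the 3 ratios tested, so this test could not reach 0.05.

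Per length, RAP2B went from the smallest RAP2 message to one of 3 nearly equal ones. Counts were divided by the length of the longest annotated transcript, and each gene was expressed as a share of the RAP2 sum. RAP2B made up 24.3%, 26.8% and 25.9% of the RAP2 sum in NT and 33.6%, 35.7% and 31.9% in OXA. Its mean share was 25.7% ± 1.27 in NT and 33.7% ± 1.91 in OXA (SD, n = 3). RAP2A held 36.5% ± 1.93 in NT and 31.4% ± 1.57 in OXA, and RAP2C 37.9% ± 1.92 and 34.9% ± 3.35. These shares sum to the whole, so a larger RAP2B share lowers the others by construction. The RAP2 sum itself, in counts per kilobase scaled by library size (CPM per kilobase), was 29.6 ± 2.58 in NT and 31.5 ± 2.68 in OXA, and it was higher in OXA in 3 of 3 same-numbered pairs, from 32.3 to 32.9, from 27.2 to 28.5 and from 29.3 to 33.3. The groups overlapped, and the difference of the sums was not tested.

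**Figure D2:**
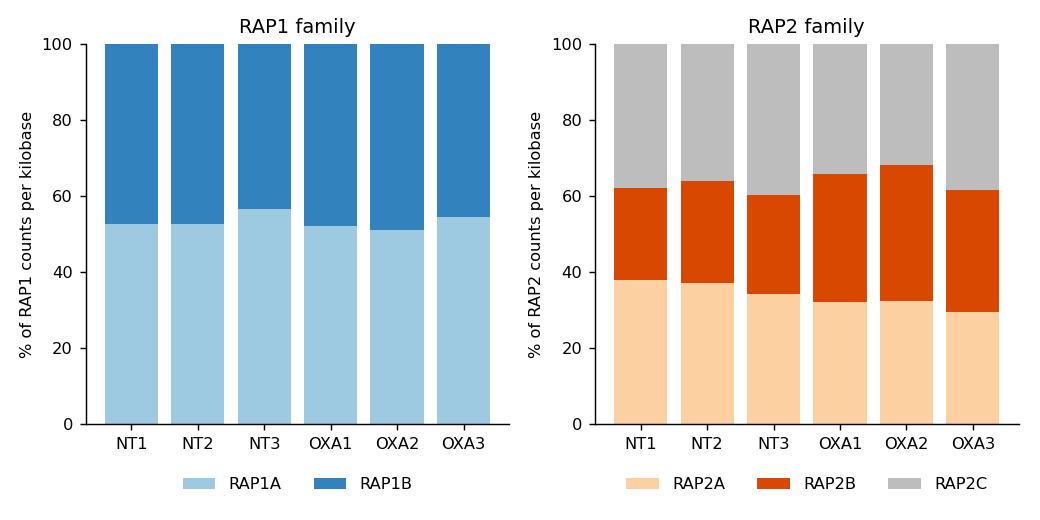
Share (%) of each gene in the counts per kilobase of the RAP1 family (left) and the RAP2 family (right), with 1 stacked bar per library. The RAP2B band is between 24.3% and 26.8% in the 3 NT libraries and between 31.9% and 35.7% in the 3 OXA libraries, while the RAP1A and RAP1B bands stay near an even split.

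RAP1A and RAP1B, the GTPases of integrin adhesion and cadherin junctions, showed no change that passed the test. RAP1A was at 2424, 1909 and 2209 normalized counts in NT and at 2116, 1837 and 2037 in OXA. OXA values lay lower in 3 of 3 same-numbered pairs, yet the groups overlapped. Its log2 fold change was -0.13 (95% interval -0.39 to 0.14, edgeR adjusted p = 0.579), and -0.04 without NT replicate 1. RAP1B, the most counted of the 9 genes, was at 5734, 4513 and 4442 normalized counts in NT and at 5095, 4609 and 4474 in OXA. NT replicate 1 was its highest library, and the other 2 NT libraries lay within or just below the OXA range. The log2 fold change of RAP1B was -0.05 (95% interval -0.33 to 0.23, edgeR adjusted p = 0.851), and it turned to 0.08 without NT replicate 1.

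The balance of the RAP1 genes differed little between the groups. The log2 ratio of RAP1A to RAP1B raw counts was -1.24, -1.24 and -1.01 in NT and -1.27, -1.33 and -1.14 in OXA, a difference of -0.08 with a two-sided exact permutation p of 0.5. RAP1B is the longer message, and per length RAP1A made up 53.9% ± 2.32 of the RAP1 sum in NT and 52.6% ± 1.69 in OXA (SD, n = 3). With the union of all annotated exons as the length, the RAP1B share was 42.3% in NT and 43.6% in OXA. The RAP1 sum was 22.1 ± 2.76 CPM per kilobase in NT and 20.7 ± 1.29 in OXA, lower in 3 of 3 same-numbered pairs. The groups overlapped, from 19.8 to 25.1 in NT and from 19.6 to 22.1 in OXA, and the difference was not tested. With the longest transcripts as lengths, the RAP1 sum lay below the RAP2 sum in both groups, an order that rests on those lengths.

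RAPGEF2, an exchange factor for RAP1 and RAP2 with a PDZ domain, had the lowest fold change of the 9 genes. It was at 2006, 1875 and 1964 normalized counts in NT and at 1632, 1486 and 1602 in OXA. Every OXA library was below every NT library, and the means were 1948 ± 66.8 and 1573 ± 76.9 (SD, n = 3). The estimate was a log2 fold change of -0.31 (95% interval -0.51 to -0.10, SE 0.0887), a fold of 0.808, and the edgeR adjusted p of 0.0927 did not pass 0.05. With the replicate number as a block, RAPGEF2 was called lower at the same log2 fold change of -0.31 (edgeR adjusted p = 0.0164). That fit called 10.9% of all genes lower and 12.1% higher, and of the 9 genes it called RAPGEF2 and RAP2B. Without NT replicate 1 the RAPGEF2 estimate was -0.29 (edgeR adjusted p = 0.0954).

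RAPGEF6, the closest relative of RAPGEF2, was not called. It was at 1546, 1379 and 1507 normalized counts in NT and at 1561, 1400 and 1558 in OXA, and replicate 2 was the lowest in each group. Its log2 fold change was 0.03 (95% interval -0.20 to 0.26, edgeR adjusted p = 0.90), and 0.06 without NT replicate 1 (edgeR adjusted p = 0.752). The intervals of RAPGEF2 and RAPGEF6 overlap, and the difference between these 2 genes was not tested.

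RAPGEF1, the exchange factor that CRK adaptors bring to adhesion sites, varied more within NT than between the groups. It was at 1880, 2777 and 2694 normalized counts in NT and at 2124, 2450 and 2410 in OXA. NT replicate 1 was the lowest of the 6 libraries and the other 2 NT libraries were the highest. The log2 fold change of RAPGEF1 was -0.07 (95% interval -0.44 to 0.29, edgeR adjusted p = 0.830), and without NT replicate 1 it was -0.23 (edgeR adjusted p = 0.171).

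RAP1GAP, which speeds GTP hydrolysis by RAP1, had the fewest counts and the widest interval of the 9 genes. It was at 588, 971 and 855 normalized counts in NT and at 713, 880 and 781 in OXA, so that NT libraries held both extremes. RAP1GAP had a log2 fold change of -0.02 (95% interval -0.46 to 0.42, edgeR adjusted p = 0.961), and -0.21 without NT replicate 1 (edgeR adjusted p = 0.332). RAPGEF1 and RAP1GAP had the most GC-rich transcripts of the 9 genes (58.6% and 60.9%), and NT replicate 1 was their lowest NT library. RAP1A, RAP1B and RAP2A had the most GC-poor ones (37.7% to 38.4%), and the same library was their highest. RAPGEF6 (39.9%), RAP2B (41.3%), RAP2C (41.5%) and RAPGEF2 (48.1%) lay in between, and NT replicate 1 was the highest NT library of each. The part of GC content in the member results was not tested.

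**Figure D3:**
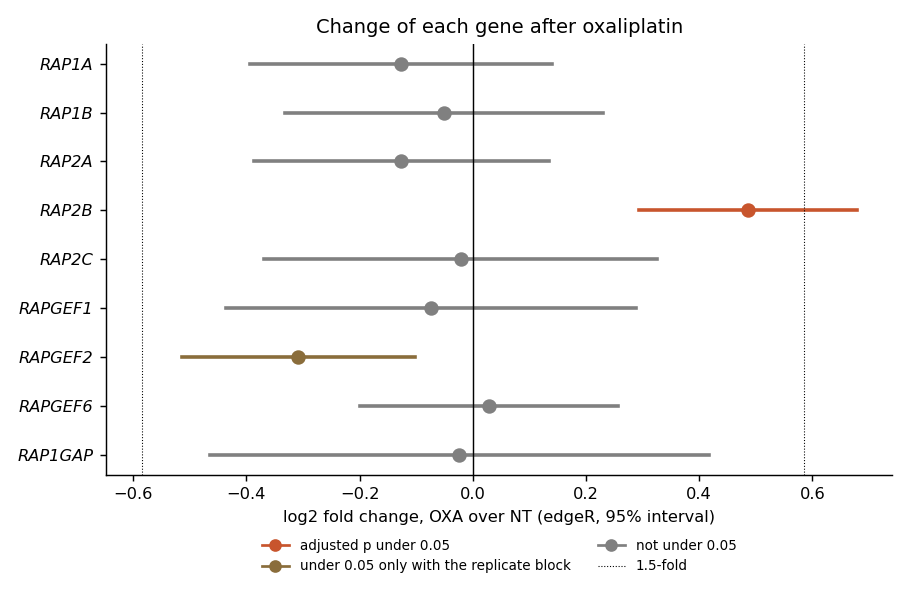
Log2 fold change of OXA over NT (x axis) for each of the 9 genes, with points for the edgeR estimate, bars for its 95% interval and dotted lines at 1.5-fold. The RAP2B interval lies above 0 and that of RAPGEF2 below 0, and the other 7 intervals span 0.

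Levels can be ranked between the genes only per length. In NT, RAP1A (11.9 ± 1.41 CPM per kilobase), RAP2C (11.2 ± 1.28), RAP2A (10.8 ± 1.24), RAP1B (10.2 ± 1.51) and RAPGEF1 (10.1 ± 2.04) did not differ beyond their SDs (n = 3 each). RAP2B (7.57 ± 0.285) and RAPGEF2 (6.58 ± 0.226) followed, and RAP1GAP (5.21 ± 1.27) and RAPGEF6 (4.92 ± 0.290) came last. RAP1GAP did not differ from RAPGEF2 or RAPGEF6 beyond the SDs. In OXA, RAP2B stood at 10.6 ± 0.443 CPM per kilobase, inside the range of the other 4 GTPases, which ran from 9.82 ± 0.679 (RAP1B) to 11.0 ± 1.87 (RAP2C). The exchange factors were at 9.57 ± 0.731 (RAPGEF1), 5.32 ± 0.260 (RAPGEF2) and 5.01 ± 0.307 (RAPGEF6), and RAP1GAP was at 5.12 ± 0.543. In OXA, the ranges of mean ± SD of RAPGEF2, RAP1GAP and RAPGEF6 overlapped. These levels rest on the longest annotated transcript of each gene, and another isoform would shift them.

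Among the genes whose pattern over the 6 libraries was most like that of RAP2B were DUSP11, an RNA phosphatase (Pearson r = 1.00), SESN1, a sestrin (r = 0.999), MYH15, a myosin heavy chain (r = 0.999) and PLK2, a polo-like kinase (r = 0.998). They were among the top 5 of 12065 genes with a mean of at least 50 normalized counts, compared on log2 CPM. As many as 656 genes reached an r over 0.9, and all points share the same 6 libraries and the same treatment.

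The rest of the RAP pathway was followed in 7 lists of 59 genes, of which 55 passed the filter. By edgeR without the block, only BCAR3 was called higher and only ICMT lower, next to 2.78% and 2.29% of all genes tested. DESeq2 called 4 of the 55 higher and 1 lower, next to 636 and 635 of the 13727 genes tested. The median log2 fold change over the 55 genes was 0.04. With the replicate block 8 of the 55 were called higher and 6 lower, next to 12.1% and 10.9% of all genes.

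BCAR3, an adaptor that binds BCAR1 (p130Cas) in integrin signaling, belongs to the list of adaptors upstream of RAPGEF1. It was at 648, 726 and 849 normalized counts in NT and at 1216, 1200 and 1263 in OXA, without overlap. The log2 fold change of BCAR3 was 0.73 (SE 0.122, edgeR adjusted p = 0.0208, higher in 3 of 3 pairs), and without NT replicate 1 it was 0.64 (edgeR adjusted p = 0.00922). BCAR3 lost its call without NT replicate 2 (edgeR adjusted p = 0.0652) and without OXA replicate 1, 2 or 3 (0.105, 0.0881 and 0.0970). The other 5 adaptors (CRK, CRKL, BCAR1, NEDD9 and CBL) were not called, and NEDD9 had the lowest estimate of the list at -0.43 (edgeR adjusted p = 0.596) on mean counts of 13.0 in NT and 9.69 in OXA.

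ICMT, the enzyme that methylates the prenylated C-terminus of RAS and RAP proteins, was called lower. It was at 6378, 6199 and 6806 normalized counts in NT and at 4161, 4066 and 4917 in OXA, so that all OXA libraries were below all NT libraries. The log2 fold change of ICMT was -0.56 (SE 0.101, edgeR adjusted p = 0.0245, lower in 3 of 3 pairs). It stayed between -0.68 and -0.51 when a library was left out, but ICMT lost its call without NT replicate 2 or 3 (edgeR adjusted p = 0.0515 and 0.0852) and without OXA replicate 1 or 2 (0.140 and 0.113). The other 6 genes of prenylation and RAP chaperoning were not called, and the highest, FNTB of the farnesyltransferase, was at 0.14 (edgeR adjusted p = 0.522).

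Other exchange factors and other GTPase-activating proteins held no edgeR call without the block. At an unadjusted p under 0.05, edgeR had 1 exchange factor higher and, of the GTPase-activating proteins, 3 higher and 1 lower. The share of all genes at that threshold was not counted, so no excess in these lists can be read from it. DESeq2 without the block called no exchange factor but called RASAL1 and SIPA1L3 higher (DESeq2 adjusted p = 0.0263 and 0.0345). The edgeR estimates of RASAL1 and SIPA1L3 were 0.66 and 0.65, and 0.48 and 0.45 without NT replicate 1. Of 8 tested exchange factors 4 had an estimate above 0, and the median was 0.00. RASGRP3, a diacylglycerol-responsive exchange factor, had the highest estimate at 1.12 (edgeR adjusted p = 0.103, and 0.0410 with the block), on only 13.8 normalized counts in NT and 30.0 in OXA. RASGRP1 had the lowest, at -0.37 (edgeR adjusted p = 0.448). RAPGEF4 and RASGRP4 did not pass the filter. The 9 GTPase-activating proteins had a median of 0.11. With the block RASAL1 (log2 fold change 0.68), SIPA1L3 (0.67) and RAP1GAP2 (0.27) were called higher and SIPA1L1 (-0.34) lower, with edgeR adjusted p of 0.0229, 0.0155, 0.0379 and 0.0118. Without it their edgeR adjusted p lay between 0.0968 and 0.213. RAP1GAP2, the closest relative of RAP1GAP, was at 2925 ± 345 normalized counts in NT and 3523 ± 242 in OXA (SD, n = 3).

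Effectors of the RAP proteins held no edgeR call without the block either. DESeq2 without the block called RALGDS higher (DESeq2 adjusted p = 0.0473) and no other effector. The edgeR estimate of RALGDS was 0.66, and 0.42 without NT replicate 1. At an unadjusted p under 0.05, edgeR had 1 RAP1 effector higher, 1 lower and no RAP2 effector, again with no share of all genes counted. Of 12 tested RAP1 effectors 6 had estimates above 0, and the median was -0.02. The block called RALGDS, a RAL exchange factor, higher (0.70, edgeR adjusted p = 0.0165) and AFDN, the junction protein afadin, and TIAM1, a RAC exchange factor, lower (-0.26 and -0.24, edgeR adjusted p = 0.0283 and 0.0377). Without it the edgeR adjusted p of these 3 genes was 0.158, 0.162 and 0.511. APBB1IP, which codes for RIAM, a link from RAP1 to talin, was at 0 counts in all 6 libraries. Among the 4 tested RAP2 effectors the median was 0.18, and the block called the kinase MAP4K4 (0.20) and ARHGAP29, a GTPase-activating protein, (0.27) higher and the kinase TNIK (-0.20) lower, with edgeR adjusted p of 0.0303, 0.0193 and 0.0318. Without the block the corresponding values were 0.395, 0.380 and 0.324. RUNDC3A did not pass the filter.

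Of the 9 other RAS family GTPases none was called without the block by edgeR or DESeq2. At an unadjusted p under 0.05 edgeR had 0 higher and 1 lower, and the share of all genes was not counted. HRAS had the highest estimate (0.40, edgeR adjusted p = 0.510), and it was 0.10 without NT replicate 1.

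**Figure D4:**
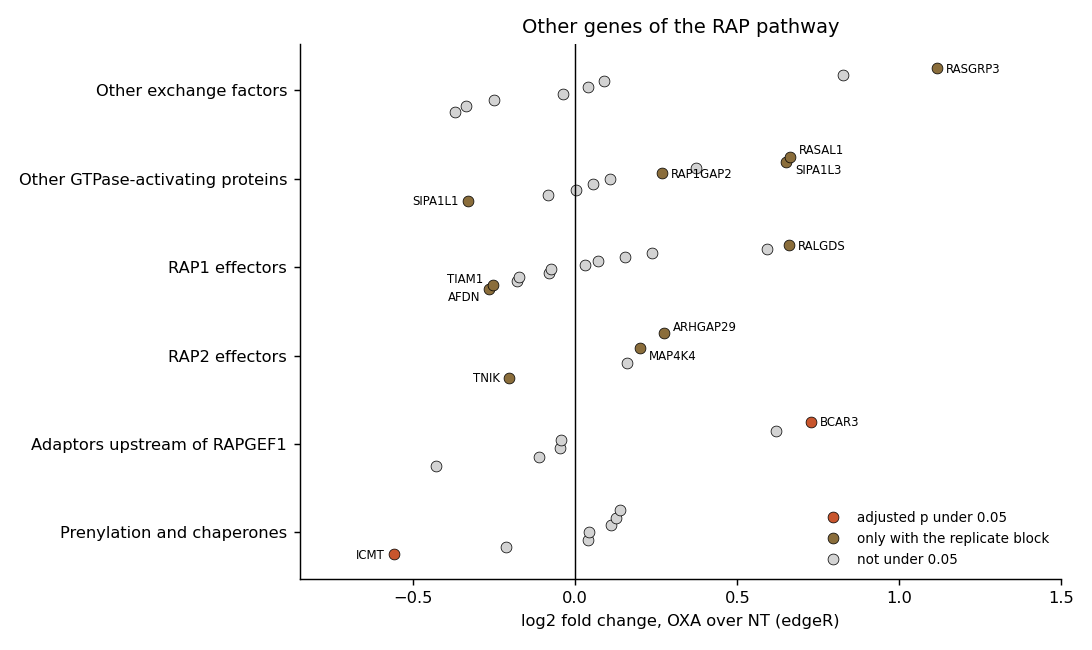
Log2 fold change of OXA over NT (x axis) for the tested genes of 6 of the 7 RAP pathway lists (y axis; other RAS family GTPases are not drawn), 1 point per gene, spread vertically for legibility. BCAR3 (0.73) and ICMT (-0.56) passed an edgeR adjusted p of 0.05, and the other labelled genes passed it only with the replicate block.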

How the data were processed

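Paired reads of stranded polyA libraries were processed per the labels with Trimmomatic 0.32, STAR 2.7.5b (GRCh38), RSEM 1.3.3 and DESeq2. The gene annotation and strand setting are not given in the sources used here. The authors deposited raw counts per gene and library, used as deposited, and a normalized signal whose factor differed between genes, used only for an alternative to the paralog ratios. PCR duplicates could not be told apart, so counting error is a lower limit.

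Genes were filtered (filterByExpr, minimum count 10, minimum total 15), scaled by TMM and tested with edgeR 4.0.16 (quasi-likelihood, limma 3.58.1, R 4.3.3) with Benjamini-Hochberg adjustment over 13727 genes. Normalized counts are raw counts scaled to the mean effective library size. The fits of edgeR (with and without the replicate block), DESeq2 and limma-voom were tested on simulated counts. Those counts held no replicate or GC effect, and their changes were larger than that of RAP2B. Behavior under such effects or at smaller changes was thus not covered. The other steps were not tested. Since separate cultures are not stated, p-values measure only the spread between these libraries. Libraries of NT and OXA with the same number had positively correlated departures from their group means (r = 0.55, 0.54 and 0.31, between different numbers -0.47 to 0.09). The replicate number was therefore also fitted as a block. Departures from a group mean cancel out within the group, so positive values for some pairs bring lower values for others by construction.

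The 9 genes and the lists were chosen with earlier results of these data known, and the lists were written from general knowledge. Named in each list were genes called with or without the block and those with the highest and lowest fold change. DESeq2 1.42.0, limma-voom, other scalings, other filters and leaving out each library were the alternatives. Some items the rules select are not reported here.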

Additional observations from a re-analysis of the deposited data

How the results depend on the processing

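Of the 9 genes, RAP2B kept its direction under every scaling, filter, test and left-out library tried, and its call under every scaling, filter and test. With 1 library left out its log2 fold change ran from 0.43 to 0.52, and it was called only without NT replicate 1, so the number of members called higher was 0 to 1. The replicate block called RAPGEF2 lower (-0.31), which made 1 member called lower, and it changed no other call among the 9 genes. Estimates near 0 changed sign. RAPGEF6 was at -0.012 with upper quartile factors, -0.00031 without a filter and -0.00048 with a filter of 1 CPM, and RAP1GAP was at 0.00060 with limma-voom. With a library left out, RAP1B ran from -0.15 to 0.078, RAP2C from -0.18 to 0.10, RAPGEF6 from -0.051 to 0.079 and RAP1GAP from -0.21 to 0.10. The cause was not tested.

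In the 7 pathway lists, DESeq2 called 4 genes higher, the block 8 higher and 6 lower, and fits without a library 0 to 1 in each direction. Over all genes, 381 were called higher and 315 lower. DESeq2 called 636 and 635, the block 1664 and 1493, upper quartile factors 493 lower and the 1 CPM filter 479 lower, and fits without a library 66 to 623 higher and 19 to 571 lower. Fewer libraries leave fewer degrees of freedom, while leaving out NT replicate 1 raised both counts. Each of the 9 genes had at least 575 raw counts in every library, and the effect of depth was not tested.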
